A study of Rattus norvegicus with 18 samples.

Results

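The 10 genes examined here encode products that set the resistance of hepatic vessels in portal hypertension: Nos3, Cav1, Klf2, Klf4, Edn1, Ednra, Ednrb, Agt, Ace and Agtr1a. They were chosen by symbol from the 32623 genes of each liver's table. All 10 were found, and all 10 passed the filter on low counts, which kept 12904 genes.

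In the healthy liver, sinusoidal endothelial cells release nitric oxide, made by the endothelial synthase encoded by Nos3, which relaxes the neighbouring hepatic stellate cells and keeps portal pressure low. Shear stress on the endothelium induces the transcription factors Klf2 and Klf4, which promote Nos3 expression, whereas caveolin-1, encoded by Cav1, binds the synthase and holds it inactive. Endothelin-1 and angiotensin II act the other way and contract stellate cells and vascular smooth muscle, and portal pressure rises in chronic liver disease partly because the balance between these groups of mediators is lost.

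Livers were taken from male Wistar rats, 6 in each of 3 groups, with 1 RNA sequencing library per rat. Control rats received standard chow and normal water for 12 weeks. NASH rats (10 weeks in all) inhaled carbon tetrachloride (CCl4) for 6 weeks, with phenobarbital in their drinking water, before 4 weeks on a diet high in fat and cholesterol (HFCD). Those of the NASH-CH group inhaled CCl4 and drank phenobarbital throughout 24 weeks, and HFCD replaced the chow for the last 16. Phenobarbital, which induces hepatic enzymes by itself, was given to both models and not to controls, and the 3 protocols differed in length, so that agent, diet, duration and disease cannot be told apart. The RNA came from whole liver tissue, in which fewer cells of a type and less RNA per cell cannot be told apart either. The sources give no statement that rats were matched across groups. Comparisons with control share the same 6 control rats.

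Library totals ran from 19498534 to 27174015 expected counts in controls, from 20827770 to 29491947 in NASH and from 44680344 to 60117822 in NASH-CH. Levels are given as CPM (counts scaled to a common library total) after TMM scaling, which allows a gene to be compared between rats but not with another gene, as CPM take no account of transcript length. All 7 hepatocyte markers were measured, and their summed level was between 81174 and 182112 CPM in the 18 livers. NASH-CH rat 5 stood apart. Of the 18 livers it had the lowest summed levels of pan-endothelial (61.6 CPM), sinusoidal endothelial (148 CPM), quiescent stellate cell (157 CPM) and hepatocyte (81174 CPM) markers, and the highest of myofibroblast (386 CPM) and cholangiocyte (39.4 CPM) markers. Values without this rat are therefore given beside several results. Its TMM factor was the largest of the 18 (1.28, against 0.79 to 1.03 in controls), which lowers all its CPM. Whether its lowest ranks hold without TMM scaling was not tested. Differences were called where the adjusted p of limma-voom, corrected by the Benjamini-Hochberg method over all 12904 genes, was under 0.05. Log2 fold changes (log2FC) are given with their standard error (SE). In RefSeq, Nos3 overlaps Atg9b, Klf2 overlaps Eps15l1, and Agt overlaps Cog2 and Capn9. Klf4, Ednra and Ace overlap the loci LOC120103069, LOC134483343 and LOC120095193, respectively. Whether the counting used strand is not given in the sources used here, so reads in shared stretches may have been split between overlapping genes.

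Promoters of 8 of the 10 genes were found in RefSeq (assembly GRCr8). Klf2 and Agt were not matched. The 250 bases before the transcription start of the 3 genes that rose in NASH-CH, and of Edn1, whose product is the ligand of both endothelin receptors, are printed 5′ to 3′ on the strand of the gene. Capitals mark every match, on either strand, to 5 short motifs: the TATA box (TATAAA), the GC box (GGGCGG), the CACCC box bound by Krüppel-like factors, the AP-1 element (TGANTCA) and the GATA element (AGATAA). Of 33469 RefSeq promoter windows of this length, 12.9%, 30.5%, 49.2%, 6.34% and 10.3%, respectively, hold these motifs.
Ednra (chr19:47137674-47137923, plus strand): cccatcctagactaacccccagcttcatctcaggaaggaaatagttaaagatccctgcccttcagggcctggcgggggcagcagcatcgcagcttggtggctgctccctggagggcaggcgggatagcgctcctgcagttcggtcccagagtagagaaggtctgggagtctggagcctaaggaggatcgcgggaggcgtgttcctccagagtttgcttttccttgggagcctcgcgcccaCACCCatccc
Ednrb (chr15:87086766-87087015, minus strand): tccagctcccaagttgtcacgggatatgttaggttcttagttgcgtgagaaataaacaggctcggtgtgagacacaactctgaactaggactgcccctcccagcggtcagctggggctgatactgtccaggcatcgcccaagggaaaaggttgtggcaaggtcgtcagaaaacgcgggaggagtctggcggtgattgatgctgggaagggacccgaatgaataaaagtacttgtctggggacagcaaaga
Ace (chr10:91409879-91410128, plus strand): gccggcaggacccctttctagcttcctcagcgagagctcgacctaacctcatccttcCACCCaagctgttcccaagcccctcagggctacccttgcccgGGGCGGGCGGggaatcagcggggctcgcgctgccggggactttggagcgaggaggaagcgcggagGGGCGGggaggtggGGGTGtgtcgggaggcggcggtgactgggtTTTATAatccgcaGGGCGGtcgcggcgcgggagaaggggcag
Edn1 (chr17:22666688-22666937, minus strand): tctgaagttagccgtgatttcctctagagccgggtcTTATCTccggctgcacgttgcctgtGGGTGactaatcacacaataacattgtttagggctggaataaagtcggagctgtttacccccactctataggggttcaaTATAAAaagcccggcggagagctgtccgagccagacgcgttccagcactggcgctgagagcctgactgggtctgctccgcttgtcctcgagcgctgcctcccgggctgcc
The window of Edn1 holds a TATA box 110 to 105 bases before the start, a CACCC box and a GATA element. That of Ace has a GC content of 69.2%, against a median of 51.2% over all windows, and holds 4 GC boxes, of which a pair overlaps, a TATA box on the opposite strand and 2 CACCC boxes. Ednra holds a single CACCC box, 10 to 6 bases before the start, and Ednrb none of the 5 motifs. A match is a string of letters and no proof of a bound site, and no factor binding was measured.

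In NASH, none of the 10 genes was called by limma, edgeR or DESeq2, where limma called 3.12% of all genes tested. An unadjusted p under 0.05 was found for 3 of the 10 (Klf2, Ednrb and Agt) and for 21.5% of all genes. In NASH-CH, 3 of the 10 rose against control and none fell: Ednrb, Ednra and Ace. Over all genes tested, 17.0% were called in this comparison, 8.38% higher and 8.60% lower. Between NASH-CH and NASH, none of the 10 was called by limma, against 4.20% of all genes, and none by edgeR. DESeq2 called 2 (Klf2 and Ednrb). The limma share does not apply to that count. Over the 10 alternative settings that kept all rats, DESeq2 among them, 349 to 2649 genes were called, against 542 with limma. An unadjusted p under 0.05 with limma was found for 3 of the 10 (Klf2, Ednrb and Ace), against 17.5% of all genes. The median log2FC of the 10 was 0.43 in NASH and 0.45 in NASH-CH against control, and 0.20 between NASH-CH and NASH, where the medians of all genes tested were 0.0072, 0.013 and 0.0068. Scaled by library size alone, the median of all genes moved to 0.23 in NASH and 0.27 in NASH-CH. The calls then ran to 785 genes higher and 80 lower in NASH, and to 2781 higher and 489 lower in NASH-CH, in place of 204 and 199 and of 1082 and 1110.

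**Figure D1:**
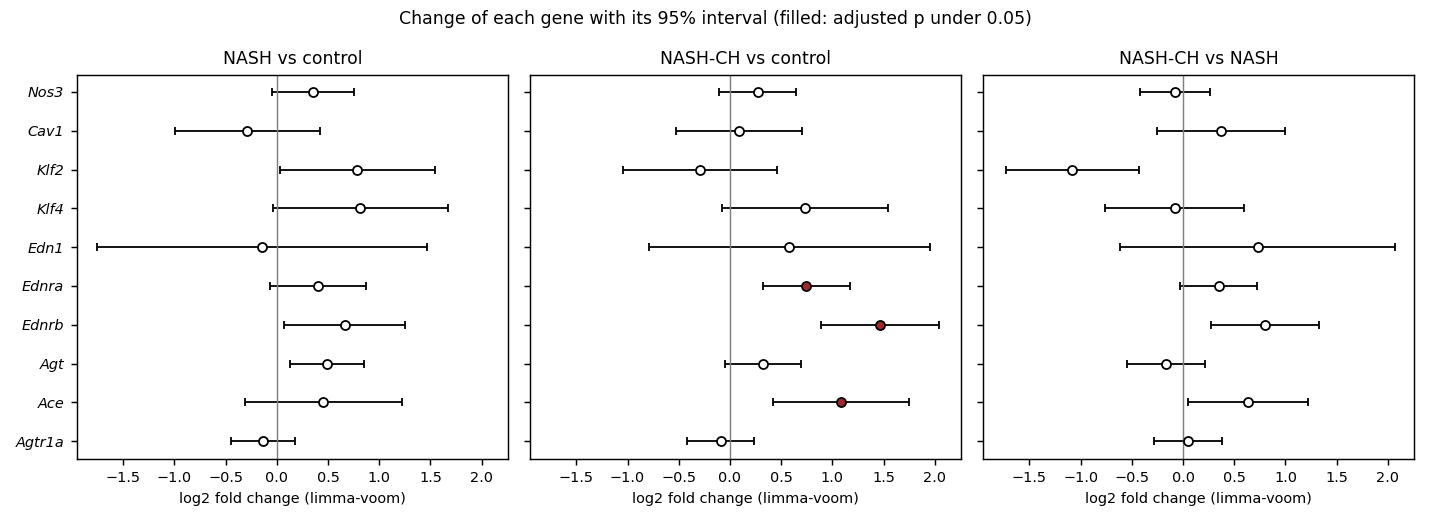
Log2 fold change of each of the 10 genes (limma-voom) with its 95% interval in the 3 comparisons. Points filled in red had an adjusted p under 0.05: Ednra (0.75), Ednrb (1.46) and Ace (1.09), all in NASH-CH against control.

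Both endothelin receptors rose in NASH-CH, and the type B receptor was the member with the largest estimated increase, at 2.76-fold. Ednrb encodes endothelin receptor type B, which on endothelium triggers nitric oxide release and clears the peptide, and which stellate cells carry as well. In controls its level was lowest at 3.77, 6.32 at the median and highest at 11.8 CPM. In NASH the corresponding levels were 7.71, 10.9 and 15.01 CPM, and in NASH-CH 13.2, 18.1 and 36.7 CPM. Every NASH-CH rat was above every control rat, a separation that 3.64% of all genes showed in this direction, and NASH rats lay between, overlapping both. The log2FC in NASH-CH was 1.46 (SE 0.27, 95% interval of the fold 1.85 to 4.11, limma adjusted p = 0.00147), and without rat 5, the highest of all, it was 1.29 (limma adjusted p = 0.00146). In NASH the level was 1.58-fold that of controls (interval 1.05 to 2.39) and did not pass the test (limma adjusted p = 0.183). NASH-CH exceeded NASH 1.74-fold (interval 1.21 to 2.51, limma adjusted p = 0.0830), a difference that passed with DESeq2 (adjusted p = 0.0282) and without a filter on low counts (adjusted p = 0.0388), the adjusted p ranging from 0.0282 to 0.184 over the alternatives.

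Ednra encodes the type A receptor, through which endothelin-1 contracts smooth muscle and activated stellate cells. Its level ran from 1.33 through a median of 1.83 to 2.56 CPM in controls, from 1.87 through 2.35 to 3.28 CPM in NASH, and from 2.14 through 3.02 to 4.21 CPM in NASH-CH. The groups overlapped: NASH-CH rat 4, at 2.14 CPM, lay within the control range, and the other 5 were above every control rat. The log2FC in NASH-CH was 0.75 (SE 0.20, 1.68-fold, 95% interval 1.25 to 2.25, limma adjusted p = 0.0174), with an adjusted p of 0.0251 without rat 5. In NASH it was 0.40 (SE 0.22, limma adjusted p = 0.315) and between NASH-CH and NASH 0.35 (SE 0.18, limma adjusted p = 0.332).

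Edn1 encodes the endothelin-1 precursor. It was read at 4 to 27 counts per control liver and 4 to 15 per NASH liver, so that changes of its level could be seen only coarsely. Its median was 0.404 CPM in controls (range 0.198 to 0.968), 0.460 CPM in NASH (0.154 to 0.643) and 0.521 CPM in NASH-CH (0.175 to 3.29). The highest value belonged to NASH-CH rat 5, with 253 counts, while the next rat of that group was at 0.585 CPM, inside the control range. The log2FC in NASH-CH of 0.58 (SE 0.66, 95% interval of the fold 0.577 to 3.87, limma adjusted p = 0.576) became -0.05 without this rat (limma adjusted p = 0.947). In NASH it was -0.15 (SE 0.77, limma adjusted p = 0.935). These intervals leave room for a fold change in either direction.

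Within each rat the ratio of type B to type A receptor mRNA does not depend on scaling between libraries. On the log2 scale this ratio averaged 1.85 ± 0.652 in controls, 2.15 ± 0.374 in NASH and 2.64 ± 0.339 in NASH-CH (SD, n = 6). All 6 NASH-CH rats were above the control mean. The difference of 0.79 from control had an exact permutation p of 0.0325 (two-sided), and 0.138 after adjustment over the 15 ratio comparisons made. The difference of 0.49 between NASH-CH and NASH had an exact permutation p of 0.0346 (adjusted p = 0.138), and that of 0.30 between NASH and control an exact permutation p of 0.323 (adjusted p = 0.440). None of the 15 passed the adjusted threshold, the smallest unadjusted p this design allows being 0.00216.

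**Figure D2:**
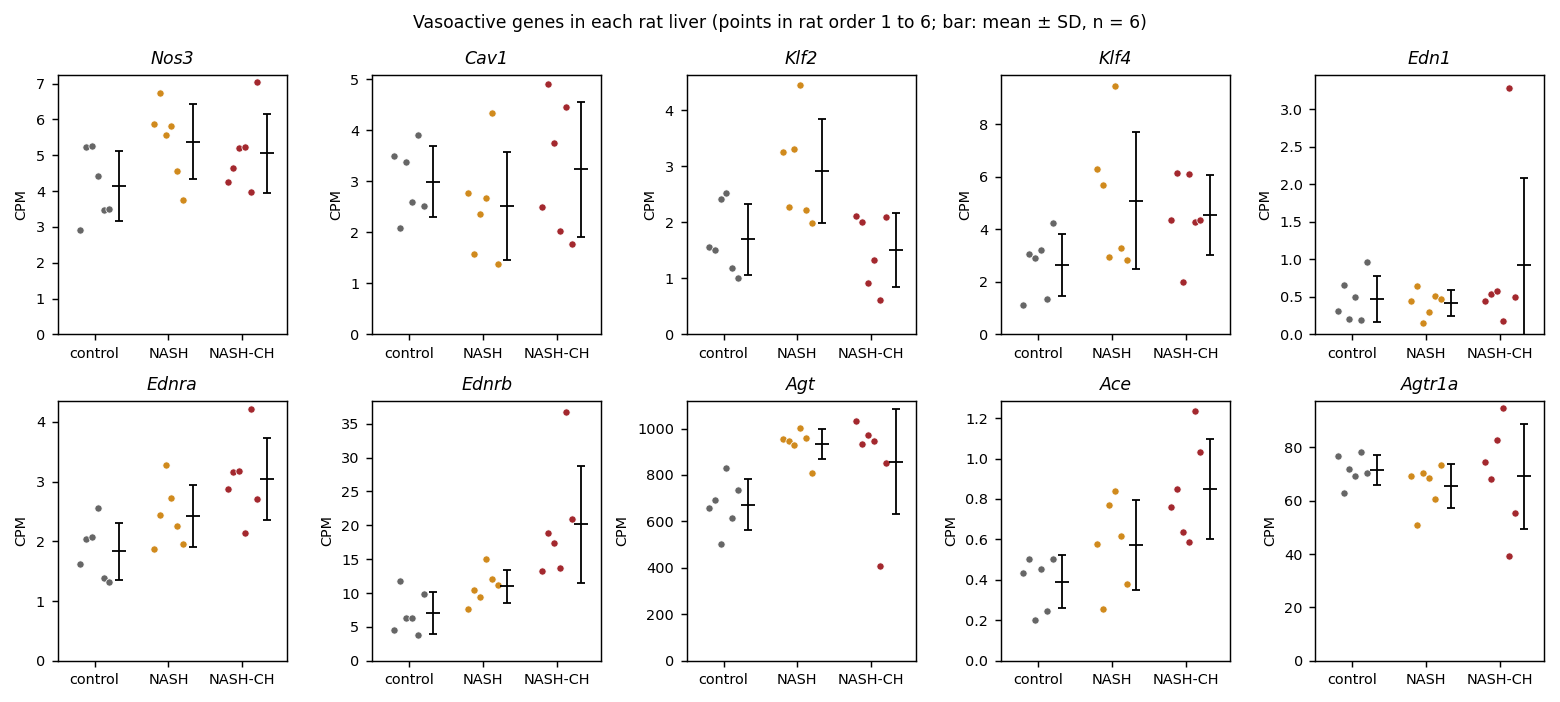
Level of each of the 10 genes in CPM (linear axes from 0) in the 6 livers of each group, points in rat order, with the mean and SD at the right of each group. The SD bar of Edn1 in NASH-CH runs below 0 and is not drawn there. The highest NASH-CH points of Edn1 (3.29 CPM) and Ednrb (36.7 CPM) and the lowest of Agt (409 CPM) are the same rat, number 5.

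Of the renin-angiotensin genes, Ace rose in NASH-CH, the precursor gene Agt was higher in most diseased livers without passing the test, and the receptor gene Agtr1a moved little. Ace encodes angiotensin-converting enzyme, which makes angiotensin II. Its levels were low, with 4 to 14 counts per control liver and 27 to 95 per NASH-CH liver. Controls ran from 0.202 through a median of 0.445 to 0.502 CPM, NASH from 0.257 through 0.598 to 0.839 CPM, and NASH-CH from 0.590 through 0.805 to 1.23 CPM. All 6 NASH-CH rats were above every control, as in 3.64% of all genes, and NASH rats spread over both ranges. The log2FC in NASH-CH was 1.09 (SE 0.32, 2.12-fold, 95% interval 1.34 to 3.36, limma adjusted p = 0.0256). With NASH-CH libraries thinned to the median control depth the call held (log2FC 0.99, limma adjusted p = 0.0487), as it did without NASH-CH rat 5 (0.94, limma adjusted p = 0.0387), but it was lost without control rat 3 (0.93, limma adjusted p = 0.0723) or control rat 5 (0.98, limma adjusted p = 0.0693). In NASH the log2FC was 0.46 (SE 0.36, limma adjusted p = 0.504), and between NASH-CH and NASH 0.63 (SE 0.28, limma adjusted p = 0.243).

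Agt encodes angiotensinogen, the substrate that hepatocytes secrete. Controls ran from 503 through a median of 674 to 832 CPM, NASH from 809 through 950 to 1002 CPM and NASH-CH from 409 through 940 to 1033 CPM. In each model 5 of 6 rats were above every control rat. The exceptions were NASH rat 6, at 809 CPM, and NASH-CH rat 5, whose 409 CPM was the lowest of all 18 livers. Against control the log2FC was 0.49 in NASH (SE 0.17, 1.41-fold, 95% interval 1.09 to 1.81, limma adjusted p = 0.115) and 0.32 in NASH-CH (SE 0.18, 1.25-fold, 95% interval 0.964 to 1.62, limma adjusted p = 0.227). Left out of the fit, NASH-CH rat 5 changed both calls: the log2FC was then 0.50 in NASH (limma adjusted p = 0.0155) and 0.51 in NASH-CH (limma adjusted p = 0.00665). This rat is in neither group of the NASH comparison, whose log2FC hardly moved, but enters the spread that all 18 rats share. In that fit the calls over all genes in NASH went from 403 to 721. Over the 18 fits that left out a rat the limma adjusted p of Agt reached 0.227 in NASH and 0.420 in NASH-CH, and over the alternatives that kept all rats it ranged from 0.0181 to 0.163 in NASH and from 0.0205 to 0.327 in NASH-CH.

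Agtr1a encodes the type 1 angiotensin II receptor of hepatocytes, stellate cells and smooth muscle. Its range was 63.0 to 78.1 CPM in controls (median 71.1), 50.8 to 73.5 CPM in NASH (median 68.9) and 39.3 to 94.7 CPM in NASH-CH (median 71.3), where both the lowest liver, rat 5, and the highest, rat 4, of all 18 were found. The log2FC was -0.14 in NASH (SE 0.15, limma adjusted p = 0.640) and -0.09 in NASH-CH (SE 0.16, limma adjusted p = 0.727), with 95% intervals of the fold from 0.732 to 1.13 and from 0.748 to 1.18. Both estimates turned positive when libraries were scaled by size alone. Agtr1b, a close copy of this gene, was listed at 0 in all 18 rats, and reads of the copies may have been assigned to Agtr1a.

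Nos3 and its inhibitor Cav1 did not pass the test in any comparison. Nos3 ran from 2.93 through a median of 3.97 to 5.25 CPM in controls, from 3.76 through 5.69 to 6.73 CPM in NASH and from 3.97 through 4.91 to 7.05 CPM in NASH-CH. The groups overlapped widely, although 5 of 6 rats of each model were above the control mean. The log2FC was 0.35 in NASH (SE 0.19, 95% interval of the fold 0.968 to 1.68, limma adjusted p = 0.294) and 0.27 in NASH-CH (SE 0.18, 0.931 to 1.57, limma adjusted p = 0.313). Against the mean log2 level of 6 pan-endothelial genes of the same rat, Nos3 was higher by 0.33 in NASH and 0.36 in NASH-CH (exact permutation p = 0.0931 and 0.0779, each 0.175 when adjusted).

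Cav1 was at 2.08 to 3.92 CPM in controls (median 2.99), 1.39 to 4.35 CPM in NASH (median 2.52) and 1.77 to 4.92 CPM in NASH-CH (median 3.13), so that controls lay within the range of both models. Its log2FC was -0.29 in NASH (SE 0.34, 95% interval of the fold 0.502 to 1.34, limma adjusted p = 0.667) and 0.09 in NASH-CH (SE 0.29, 0.692 to 1.63, limma adjusted p = 0.866). The latter was -0.05 without NASH-CH rat 5 (limma adjusted p = 0.921). The within-rat log2 ratio of Cav1 to Nos3 differed from control by -0.69 in NASH and -0.25 in NASH-CH (exact permutation p = 0.0801 and 0.528, or 0.175 and 0.609 when adjusted).

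The shear-responsive factors Klf2 and Klf4 had higher estimates in NASH, again short of the threshold. Klf2 ran from 1.00 through a median of 1.53 to 2.52 CPM in controls, from 1.99 through 2.76 to 4.45 CPM in NASH and from 0.610 through 1.67 to 2.12 CPM in NASH-CH. All 6 NASH rats were above the control mean and all 6 NASH-CH rats below the NASH mean, with overlap in both comparisons. The log2FC was 0.79 in NASH (SE 0.36, 95% interval of the fold 1.02 to 2.91, limma adjusted p = 0.211) and -0.29 in NASH-CH (SE 0.36, limma adjusted p = 0.609), which was -0.0049 without rat 5, the lowest liver. NASH-CH was at 0.473-fold of NASH (interval 0.302 to 0.740, log2FC -1.08, SE 0.31, limma adjusted p = 0.0543). This difference passed with DESeq2 (adjusted p = 0.0369), without a filter on low counts (adjusted p = 0.0258) and without NASH-CH rat 1, 2 or 6 (limma adjusted p = 0.0349, 0.0488 and 0.0333), and had a limma adjusted p of 0.112 without NASH-CH rat 5. Over the alternatives that kept all rats it ranged from 0.0258 to 0.112.

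Relative to the 6 pan-endothelial genes, Klf2 differed by 0.72 on the log2 scale between NASH and control (exact permutation p = 0.0368, adjusted p = 0.138), -0.15 between NASH-CH and control (exact permutation p = 0.688, adjusted p = 0.737) and -0.87 between NASH-CH and NASH (exact permutation p = 0.0238, adjusted p = 0.138). Klf4 ran from 1.12 through a median of 2.99 to 4.23 CPM in controls, from 2.84 through 4.49 to 9.48 CPM in NASH and from 1.99 through 4.35 to 6.14 CPM in NASH-CH. The spread within NASH was wide, with rat 4 at 9.48 CPM and 3 rats within the control range. Its log2FC was 0.81 in NASH (SE 0.41, limma adjusted p = 0.254), 0.73 in NASH-CH (SE 0.39, limma adjusted p = 0.204) and -0.08 between the models (SE 0.32, limma adjusted p = 0.933).

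Other genes of these pathways were followed through 4 lists of 99 genes in all, of which 94 were found and 75 tested. With limma, 5 of the 75 were called in NASH (2 rose and 3 fell) and 11 in NASH-CH (4 rose and 7 fell). Over all genes tested, the shares called were 3.12% and 17.0%. The counts of single lists below, cell type markers included, stand beside these same shares. The medians of the 75 log2FC were 0.06 and 0.12. Between NASH-CH and NASH none of the 75 was called with limma or edgeR, 2 were with DESeq2, and 13 had an unadjusted p under 0.05 with limma. Over all genes limma called 4.20% there, and 17.5% had an unadjusted p under 0.05. Scaled by library size alone, the calls were 10 higher and 2 lower in NASH and 17 higher and 4 lower in NASH-CH, so that the balance of directions depends on the scaling.

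Among peptidases that act on these ligands, the neprilysin gene Mme and the aminopeptidase A gene Enpep fell in both models. Neprilysin degrades endothelins and other vasoactive peptides. Mme was at 1.47 to 7.48 CPM in controls (median 3.55), 0.231 to 2.31 CPM in NASH (median 0.616) and 0.326 to 0.870 CPM in NASH-CH (median 0.438), every NASH-CH rat being below every control, as 3.46% of all genes were. Its log2FC was -2.18 in NASH (SE 0.50, limma adjusted p = 0.0273) and -2.83 in NASH-CH (SE 0.47, limma adjusted p = 0.000505). Aminopeptidase A removes the first residue of angiotensin II. Enpep ran from 49.1 to 104 CPM in controls (median 82.3), from 33.3 to 57.5 CPM in NASH (median 44.3) and from 16.9 to 40.1 CPM in NASH-CH (median 32.8), again without overlap between NASH-CH and control. Its log2FC was -0.84 in NASH (SE 0.21, limma adjusted p = 0.0346) and -1.39 in NASH-CH (SE 0.21, limma adjusted p = 0.000204). The NASH-CH calls of both genes held in each of the 18 fits that left out a rat, whereas in NASH that of Mme was lost in 6 of them (log2FC -2.50 to -1.85, limma adjusted p up to 0.0796) and that of Enpep in 8 (-0.97 to -0.74, limma adjusted p up to 0.0930).

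Ece1, the endothelin-converting enzyme gene, had a log2FC of 0.38 in NASH (SE 0.11, limma adjusted p = 0.0550) and 0.22 in NASH-CH (SE 0.11, limma adjusted p = 0.184). All 6 NASH rats were above every control, as in 1.77% of all genes, but the lowest was at 124.6 CPM and the highest control at 124.0 CPM. In NASH Ece1 passed in 5 of 10 alternatives that kept all rats, DESeq2 among them (adjusted p from 0.0121 to 0.0888 over the 10), and in 4 of the 18 fits that left out a rat (limma adjusted p from 0.0255 to 0.127). In NASH-CH it passed with library size alone (limma adjusted p = 0.0229).

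**Figure D3:**
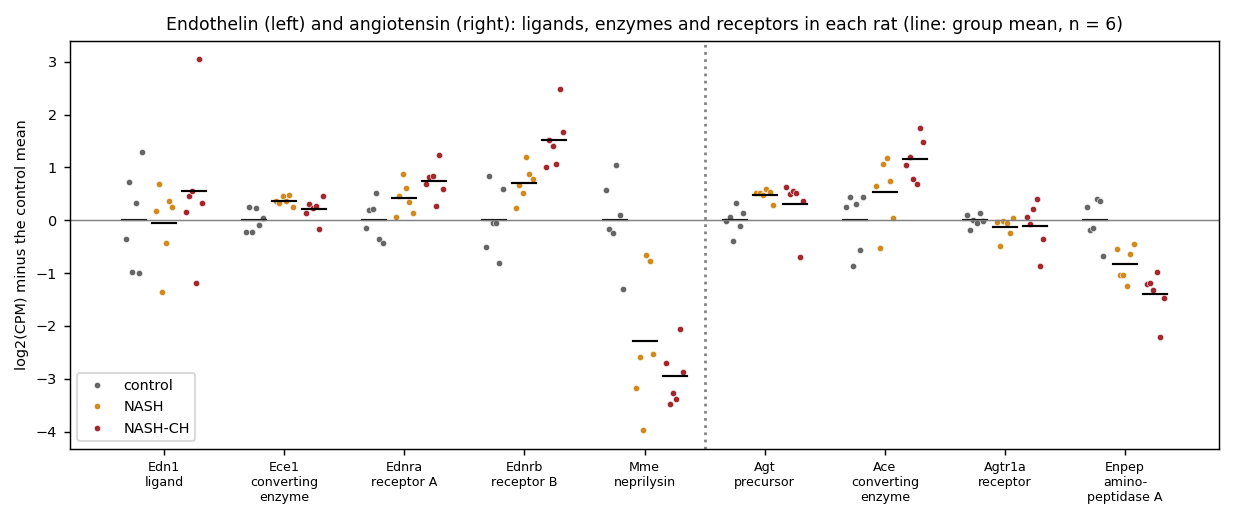
Log2 CPM of each rat minus the control mean for genes of the endothelin system (left of the dotted line) and of the angiotensin system (right), with a line at each group mean (n = 6). Both endothelin receptors and Ace lie highest in NASH-CH, and Mme and Enpep lie lowest there, with no overlap with controls for Ednrb, Ace, Mme and Enpep.

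Other ligand and receptor genes of these systems had few or no counts. Edn2, Agtr1b and Agtr2 were listed at 0 in all 18 rats. Hsp90aa1, a chaperone gene that every cell uses, was listed at 0 in all 18 as well, so a 0 in these tables does not show that a gene is silent. Edn3 had a single count in 1 rat. Mas1, which encodes another receptor of the angiotensin system, had at most 3 counts in a rat. These 5 genes did not pass the filter and were not tested.

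In the nitric oxide list, 21 of 27 genes were tested, and 1 rose and 1 fell in NASH, against 1 and 3 in NASH-CH. Ddah1, which encodes an enzyme that removes an endogenous inhibitor of nitric oxide synthases, had means of 32.9 ± 9.06 CPM in controls, 58.0 ± 9.75 CPM in NASH and 47.2 ± 11.5 CPM in NASH-CH (SD, n = 6). It rose by 0.85 on the log2 scale in NASH (SE 0.17, limma adjusted p = 0.0152), without overlap, which 1.77% of all genes showed in this direction, and by 0.54 in NASH-CH (SE 0.18, limma adjusted p = 0.0452), a call that 12 of the 18 fits that left out a rat lost (limma adjusted p up to 0.113). The kinase gene Akt1, whose product activates the endothelial synthase, fell in NASH (log2FC -0.44, limma adjusted p = 0.0291, lost in 7 of the 18 fits, limma adjusted p up to 0.0712). Spr and Pts, which encode enzymes of the synthesis of tetrahydrobiopterin, the cofactor of the synthases, fell in NASH-CH by 0.64 (limma adjusted p = 0.00246) and by 0.45 (limma adjusted p = 0.0176) on the log2 scale, as did Nosip, whose product binds the synthase, by 0.40 (limma adjusted p = 0.0172). Scaled by library size alone, the calls of Pts and Nosip were lost, as was that of Akt1 in NASH (log2FC -0.21, limma adjusted p = 0.296).

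None of the other nitric oxide genes followed by name passed with limma and TMM scaling. The neuronal synthase gene Nos1 had a log2FC of -0.08 in NASH and 0.70 in NASH-CH (limma adjusted p = 0.954 and 0.334), at 3 to 14 counts per control liver. Nostrin, which traffics the synthase, was at 0.06 and 0.23 (limma adjusted p = 0.826 and 0.187), and Ddah2 at -0.16 and 0.59 (limma adjusted p = 0.831 and 0.162). Without NASH-CH rat 5, the log2FC in NASH-CH was 0.32 for Nos1 and 0.38 for Ddah2 (limma adjusted p = 0.610 and 0.278). The soluble guanylate cyclase subunits that receive nitric oxide, Gucy1a1 and Gucy1b1, were at 0.17 and 0.18 in NASH (limma adjusted p = 0.389 and 0.506) and at 0.14 and -0.00028 in NASH-CH (limma adjusted p = 0.397 and 0.999). Cav2 was at 1.04 in NASH (limma adjusted p = 0.0830) and 0.80 in NASH-CH (limma adjusted p = 0.103). In NASH it passed with DESeq2 (adjusted p = 0.0274), library size alone (adjusted p = 0.0322) and quality weights (adjusted p = 0.0371), the alternatives that kept all rats ranging from 0.0274 to 0.116. Scaled by library size alone, Cav2 (adjusted p = 0.0252), Nostrin (adjusted p = 0.0385) and Gucy1a1 (adjusted p = 0.0346) passed in NASH-CH with limma. Nos2 and Cavin1 were not analysed here.

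In the list of the KLF2 and KLF4 response and endothelial tone, 26 genes were tested. None was called in NASH by limma or edgeR (6 at an unadjusted p under 0.05, 3 by DESeq2). In NASH-CH limma called 1, and edgeR and DESeq2 2 each. The limma call was a fall of Npr3, which encodes the natriuretic peptide clearance receptor (log2FC -1.07, SE 0.27, limma adjusted p = 0.0120). In the endothelin list, 10 genes were tested, with Mme falling in both models and Plcb1, a phospholipase that signals below the receptors, rising in NASH-CH by 0.45 (limma adjusted p = 0.0266, lost in 6 of the 18 fits, limma adjusted p up to 0.0656). In the list of the renin-angiotensin system and contraction, 18 genes were tested, with 1 rising and 1 falling in NASH and 2 of each in NASH-CH. Besides Enpep, these included Mylk and Atp6ap2. Mylk, the kinase of myosin light chain that drives contraction, rose from a mean of 80.0 CPM to 117 CPM in NASH (log2FC 0.54, limma adjusted p = 0.0231, lost in 5 of the 18 fits, limma adjusted p up to 0.0683) and 123 CPM in NASH-CH (log2FC 0.61, limma adjusted p = 0.00317). It did not overlap controls in either, which 1.77% and 3.64% of all genes showed in this direction. Atp6ap2, which encodes a membrane protein of the system and of the vacuolar proton pump, fell in NASH-CH (log2FC -0.24, limma adjusted p = 0.0432), a call lost in 11 of the 18 fits (limma adjusted p up to 0.0950) and a direction that reversed when libraries were scaled by size alone.

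Cell type markers moved beside the receptor and enzyme genes in NASH-CH. The summed level of 5 capillarized or vascular endothelial markers was 17.2 to 39.7 CPM in controls and 32.5 to 52.8 CPM in NASH-CH, and 2 of 4 tested rose: Vwf (log2FC 1.13, limma adjusted p = 0.00245) and Cd34 (0.96, limma adjusted p = 0.0398, lost in 7 of the 18 fits, limma adjusted p up to 0.117). Myofibroblast markers summed to 231 to 321 CPM in controls and 245 to 386 CPM in NASH-CH, with 3 of 7 risen, Tagln (0.97), Col1a1 (1.02) and Des (0.65). Smooth muscle markers summed to 10.8 to 16.5 and 17.3 to 22.6 CPM, with 1 of 4 tested risen, Rgs5 (1.87, limma adjusted p = 9.81e-05), which rose 2.83-fold in NASH (limma adjusted p = 0.0110). Quiescent stellate cell markers, at 244 to 314 and 157 to 264 CPM, held 3 of 6 tested that fell. None of 6 pan-endothelial markers (64.4 to 91.8 and 61.6 to 79.6 CPM) and none of 7 sinusoidal markers (214 to 291 and 148 to 278 CPM) was called against control by limma, edgeR or DESeq2, and 1 of each list had an unadjusted p under 0.05. Macrophage markers were at 198 to 375 and 132 to 197 CPM, with 4 of 6 fallen, and hepatocyte markers at 124042 to 182112 and 81174 to 133368 CPM, with 3 of 7 fallen and 1 risen. No marker list had a gene at 0 in all 18 livers. The part of these shifts in the changes of Ednrb, Ednra and Ace was not tested.

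**Figure D4:**
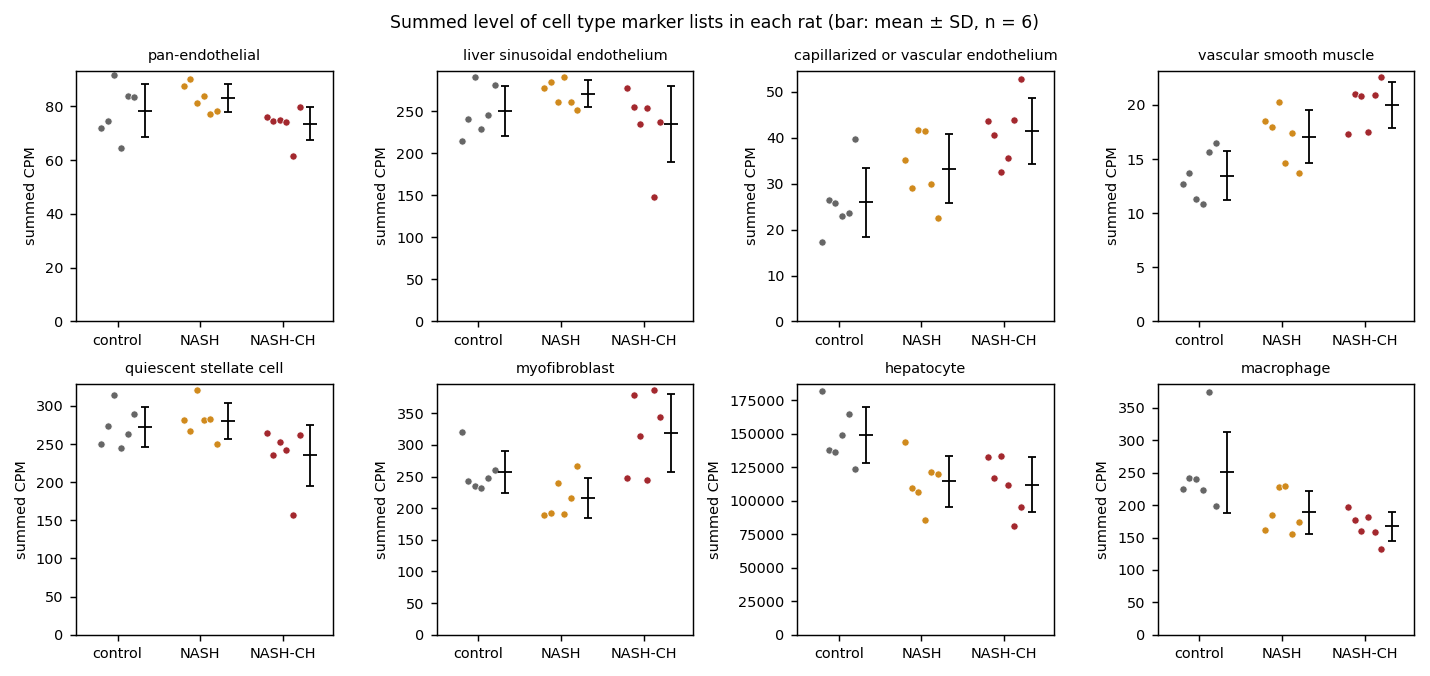
Summed CPM of the measured markers of 8 cell types in each liver (linear axes from 0), with the mean and SD at the right of each group (n = 6). Vascular endothelial (32.5 to 52.8 CPM) and smooth muscle sums (17.3 to 22.6 CPM) lie highest in NASH-CH, while the pan-endothelial sum (61.6 to 79.6 CPM) stays within or just under the control range.

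The genes whose deviations from the group means most resembled those of a member, by Pearson's r of log2 CPM over the 18 rats, are given as a description, since rats share library depth and cell makeup. For Ednrb these were the NF-kappaB subunit genes Relb (r = 0.907) and Nfkb2 (0.887) and the corepressor gene Nab1 (0.879). Without NASH-CH rat 5 their r was 0.873, 0.840 and 0.865. Ednra varied most like Bloc1s2 (0.870, or 0.843 without that rat), Mefv (0.782, or 0.7295) and Prkaa1 (0.781, or 0.726). Ace varied most like Nr2f1 (0.871), Ypel4 (0.822) and Gna15 (0.786, or 0.760 without that rat).

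For Edn1 the highest r, with Rgs2 (0.854), Nfkb1 (0.848) and Itgb4 (0.842), fell to 0.727, 0.694 and 0.661 without NASH-CH rat 5, and for Agt, with Nit1 (0.900) and Il6r (0.886), to 0.571 and 0.657. Agtr1a varied most like Slc39a1 (0.884), the organic anion transporter gene Slco1a1 (0.877) and Cdo1 (0.876). Without NASH-CH rat 5 these fell to 0.825, 0.738 and 0.7375. Nos3 was closest to Rybp (0.834), Dennd2a (0.829) and Heg1 (0.821), and Klf2 to Ankrd33b (0.839), Klhl25 (0.838) and Ctif (0.776). Without NASH-CH rat 5 the r of Klf2 was 0.915, 0.776 and 0.672, respectively. Klf4 was closest to LOC103694380 (0.915), the circadian deadenylase gene Noct (0.881) and the kinase gene Sik1 (0.837). Cav1 had the weakest resemblances, to Ly86 (0.724), a gene without a symbol (0.715) and Gpc3 (0.712).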

How the data were processed

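Per the labels and the study's methods, liver RNA was sequenced from TruSeq libraries, and the authors removed adapters with Trim Galore, mapped reads in STAR 2-pass mode to the Rnor_6.0 genome, and estimated gene counts by RSEM from Ensembl annotation (release 95). Tool versions and the strand setting are not given in the sources used here. Each rat has 1 deposited table of RSEM expected counts, corrected for neither depth nor length. Expected counts were rounded, scaled by TMM (edgeR 4.0.16), filtered with filterByExpr and fitted by the voom method of limma 3.58.1 (moderated t, R 4.3.3), the 18 rats and 3 group means entering a single model. Adjusted p-values cover all 12904 genes, with a threshold of 0.05, and the gene-wise and permutation tests were tested on simulated data. No transcript length was used.

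Within-rat ratios are differences of log2 CPM with a prior count of 2, compared by two-sided exact permutation over 924 splits. Samples were grouped by the group in their labels, and rat numbers were not used as pairs. The genes, the pathway and marker lists and the rule for naming genes were chosen with earlier results of these data known: all 10 genes, 17 pathway genes whatever their result, up to 4 called genes per list and comparison with the largest absolute moderated t, and for each of the 10 the 3 genes with the highest Pearson r. Older symbols were matched through RefSeq, Gucy1a3 and Gucy1b3 standing for Gucy1a1 and Gucy1b1. Promoter windows are from RefSeq GRCr8, and their coordinates are not those of Rnor_6.0. Alternatives were DESeq2 1.42.0 (its test, and its size factors in limma), quasi-likelihood in edgeR, library size alone, other filters on low counts, 2 groups fitted alone, quality weights, a replicate block, thinned NASH-CH counts and leaving out each rat. Results for some of these genes are not reported here. The likeness of genes without NASH-CH rat 5 was added after seeing the data.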

Additional observations from a re-analysis of the deposited data

Results flagged for a closer look

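In 4 of 30 groups of 6 rats, 10 genes in 3 conditions, the most extreme rat lay further from its nearest neighbour than Dixon's 95% limit of 0.625 of the range allows. Chance gives this in about 1 of 20 groups where values follow a normal distribution. The limit was applied to CPM on the linear scale, which can be skewed. Edn1 in NASH-CH, for instance, had a mean of 0.921 and a median of 0.521 CPM. The count of 4 therefore cannot be read as an excess over chance, and it may differ on the log2 scale. Of the 4, 3 belong to NASH-CH rat 5, at 3.29 CPM for Edn1 (next rat 0.585 CPM), 36.7 CPM for Ednrb (next rat 21.0 CPM) and 409 CPM for Agt (next rat 851 CPM). The other is NASH rat 6, at 809 CPM for Agt (next rat 931 CPM). None of 15 groups of within-rat ratios held such a rat, but these ratios are on the log2 scale. They cannot be set against the linear CPM of single genes. Why these rats stand apart was not tested.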

How the results depend on the processing

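Ednrb, Ednra and Ace kept their call in NASH-CH under each alternative that gave a value and kept all rats. At least 10 counts in every sample could not give values for Edn1 and Ace. Leaving out a rat, 2 to 4 of the 10 genes passed in NASH-CH, 0 to 1 in NASH and 0 to 1 between NASH-CH and NASH. In NASH, 1 gene (Agt) passed with library size alone, with 2 groups fitted alone and with quality weights, in place of 0. Between NASH-CH and NASH, 2 (Klf2 and Ednrb) passed with DESeq2 and without a filter. The calls over all genes, 403, 2192 and 542 in the main fit, moved as well. Over the alternatives they ranged from 268 to 1509 in NASH, 1408 to 5495 in NASH-CH and 349 to 2649 between the models. Leaving out a rat, the ranges were 128 to 982, 1519 to 2409 and 346 to 591. The pathway counts below stand beside these same ranges. The cause was not tested.

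Of the 75 tested pathway genes, the 5 called in NASH became 11 with DESeq2, 12 with library size alone, 8 with 2 groups alone and 15 with quality weights (1 to 9 leaving out a rat). The 11 in NASH-CH became 21 with library size alone, 18 without a filter and 7 with 2 groups alone (8 to 16 leaving out a rat), and the 0 between NASH-CH and NASH became 2 with DESeq2, 2 without a filter, 1 with 2 groups alone and 2 with quality weights (0 to 2).

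Some directions reversed. With library size alone, which raises all genes, Edn1 (0.13), Agtr1a (0.092), Nos1 (0.099) and Ddah2 (0.058) turned in NASH, and Agtr1a (0.16), Gucy1b1 (0.26) and Atp6ap2 (0.016) in NASH-CH. With quality weights Edn1 (0.029) turned in NASH, Agtr1a (0.057) and Gucy1b1 (0.16) in NASH-CH, and Klf4 (0.10) between NASH-CH and NASH. Gucy1b1 in NASH-CH was also 0.028 with edgeR, 0.021 with DESeq2, 0.0052 without a filter, 0.011 with at least 10 counts and 0.00084 with 2 groups alone. Leaving out a rat, log2FC ranges that crossed 0 were -0.34 to 0.13 (Edn1), -0.34 to 0.16 (Nos1), -0.029 to 0.13 (Nostrin) and -0.27 to 0.051 (Ddah2) in NASH. In NASH-CH they were -0.054 to 0.24 (Cav1), -0.053 to 0.89 (Edn1), -0.20 to 0.049 (Agtr1a) and -0.078 to 0.11 (Gucy1b1), and between NASH-CH and NASH -0.23 to 0.14 (Klf4), -0.23 to 0.013 (Agt) and -0.059 to 0.18 (Agtr1a). The ratio of Klf2 to pan-endothelial genes ranged from -0.30 to 0.030 in NASH-CH against control, and that of Nos3 from -0.052 to 0.095 between NASH-CH and NASH.

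Rats that share a number deviated together weakly at most (mean r of 0.052, 0.073 and 0.015 over the 3 comparisons, single pairs from -0.12 to 0.17). Rats with unlike numbers were not compared in this way, so these values cannot tell whether the number marks a pairing. A fit with the replicate block called the same counts of the 10 genes, 0, 3 and 0, and changed none of their calls. Of other named genes it lost Enpep in NASH (-0.83, limma adjusted p = 0.0587), and Ddah1 (0.54, limma adjusted p = 0.0501) and Atp6ap2 (limma adjusted p = 0.0858) in NASH-CH, where Gucy1b1 was 0.014. Depth limits Edn1 and Ace most, since their control livers hold 4 to 27 and 4 to 14 counts.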
